A study of Mus musculus with 32 samples.

Results

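The comparison described here asked whether mouse embryonic stem cells (ESCs) that had made a moderate amount of β-catenin, and had then lost it, answered a differentiation stimulus in the same way as cells that had never made it. It is an interaction, the change from day 0 to day 4 in pretreated cells (C1MV minus C1M) minus the same change in knockout cells (C1T minus C1), on the log2 scale. It uses 16 of the 32 libraries of the series, and 3443 of the 15280 genes tested passed the threshold for it. A positive interaction means that expression ended higher after differentiation, relative to its own starting level, in the pretreated cells. The libraries hold the 3′ ends of transcripts (QuantSeq), with 4 biological replicates per group.

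All groups are the ESC line C1, which lacks endogenous β-catenin and carries, from lentiviral vectors, the transactivator rtTA (EF1a promoter) and, under the TRE3G promoter, a constitutively active β-catenin (S33Y) fused to mCherry and to a destabilizing domain (DD). Doxycycline (dox) starts transcription of the fusion and trimethoprim (TMP) stabilizes its protein. The cells of every group were expanded in medium with 2 kinase inhibitors and LIF (2i/L) according to the methods of the study, whereas the sample labels name serum and LIF. C1 cells received 10 μM TMP without dox for 48 h and were collected as live knockout cells at day 0. C1M cells received 10 μM TMP with 100 ng/mL dox for 48 h and were sorted from the middle gate of mCherry fluorescence. C1T and C1MV are these cells after 4 days in NDiff227 on gelatin, C1T with 10 μM TMP and C1MV with neither inducer. The pretreatment with dox, the mCherry sort and the absence of TMP at day 4 all separate C1MV from C1T, so they cannot be told apart. All groups derive from 1 engineered line. Alongside, C1H and C1HV are the cells of the high mCherry gate before and after withdrawal, and C1MDT are moderate cells that kept both inducers for the 4 days.

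β-catenin works in the Wnt pathway as a coactivator of TCF and LEF factors and, at the membrane, joins cadherins to the cytoskeleton. ESCs leaving 2i/L pass from naive pluripotency, marked by factors such as Klf4 and Tfcp2l1, into a formative state marked by Pou3f1 and the de novo DNA methyltransferases. In neural induction medium such as NDiff227 most cells then move towards ectoderm, while endoderm of the early embryo is recognized by Gata and Sox factors and by a basement membrane of laminin, collagen IV and Sparc.

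Between 1366951 and 3008252 reads fell on genes in the 16 libraries (median 2344597.5), and 3 counts, taken as the floor, came to 0.997 to 2.19 CPM, which are counts scaled to library size. Without molecular identifiers in the reads, the floor stands for counting error alone. Within groups, log2 CPM correlated between libraries with r from 0.970 to 0.980, and replicate 4 of C1MV was the shallowest library. The day 0 libraries held the transcripts of pluripotent cells, with Sox2 at 860 ± 29.9 CPM (mean ± SD, n = 4) in C1 and 798 ± 42.9 in C1M and Nanog at 581 ± 44.3 and 667 ± 76.7. Sox1, an early neural gene, was at 92.3 ± 10.8 CPM in C1T and 89.3 ± 3.85 in C1MV at day 4. In bulk RNA of this kind, fewer cells of a type and less RNA per cell cannot be told apart, and p-values measure the spread between these cultures of 1 line.

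Ctnnb1, the gene of β-catenin (ENSMUSG00000006932, chromosome 9 from 120929216 to 120960507, GRCm38 throughout), was counted at a low level in every library. The 4 C1 libraries held 8.81, 6.23, 5.19 and 11 CPM and the 4 C1M libraries 9.76, 12.1, 9.45 and 17.8. At day 4 the C1T libraries held 8.16, 11.2, 12.4 and 7.18 CPM and the C1MV libraries 10.5, 7.11, 6.91 and 12.1. All 4 groups overlapped, and the interaction of -0.79 (SE 0.36, edgeR FDR = 0.1) did not pass. Where these 3′ reads lie relative to the deleted exons and to the transgene is not given in the sources used here, so the low counts in C1 do not check the knockout. In C1H the mean was 41.2 ± 5.7 CPM. Axin2, a feedback inhibitor that β-catenin induces, stood near the floor in all groups (1.01, 3.38, 2.22 and 2.81 CPM in C1, C1T, C1M and C1MV) with an interaction of -1.40 (SE 0.80, edgeR FDR = 0.21). It ran from -2.33 to -0.89 with 1 library left out, and a difference was not detectable at this depth.

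Both kinds of cells remodelled their transcriptome between day 0 and day 4. In knockout cells 3722 genes rose (24.4% of all tested) and 3806 fell (24.9%), and in pretreated cells 3358 rose (22.0%) and 3649 fell (23.9%), at an FDR, the Benjamini-Hochberg adjusted p of edgeR's quasi-likelihood test, under 0.05. Across the 15280 genes the log2 responses of the knockout and pretreated cells, which share no library, correlated with Pearson r = 0.586, a description across genes, which are not independent replicates, and 71.9% of genes had the same sign. The interaction itself was called for 22.5% of genes. It was positive for 1676 (11.0%) and negative for 1767 (11.6%), with a median over all genes of -0.03 and a median size of 0.87 among those called. Of the called genes, 676 were above 1 and 775 below -1, and 195 and 357 were beyond 2 and -2. Without any adjustment 5049 genes had p under 0.05. In 283 of the called genes at least 1 of the 4 groups had all libraries at 3 counts or fewer.

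**Figure D1:**
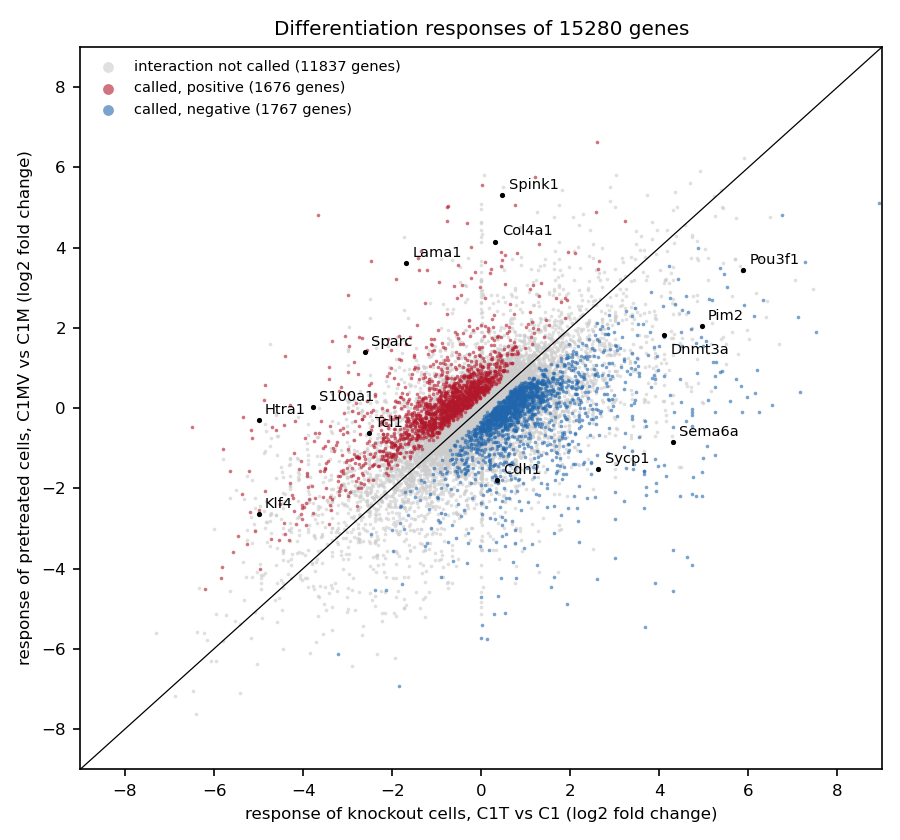
Log2 response of each of 15280 genes between day 0 and day 4 in knockout cells (horizontal axis, C1T vs C1) and in pretreated cells (vertical axis, C1MV vs C1M); the diagonal marks equal responses and colours mark the 1676 positive and 1767 negative called interactions. Lama1 (interaction 5.30) lies far above the diagonal and Sema6a (-5.16) far below it.

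The called interactions took several forms. Among positive genes, 551 fell in knockout cells and passed in neither direction in pretreated cells, 441 fell in both, 378 rose in pretreated cells alone, 176 fell in knockout cells and rose in pretreated cells, 105 rose in both and 25 passed in neither. Among negative genes, 665 rose in knockout cells alone, 460 rose in both, 347 fell in pretreated cells alone, 144 rose in knockout cells and fell in pretreated cells, 95 fell in both and 56 passed in neither. In all, 320 genes had called responses of opposite sign. Since the genes were chosen by the interaction, these counts describe them and test nothing.

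A difference in response can come from where the cells started or from where they ended. At day 0, C1M was above C1 for 2184 genes (14.3%) and below for 1838 (12.0%), and at day 4 C1MV was above C1T for 2341 (15.3%) and below for 2280 (14.9%). Of the 3443 genes with a called interaction, 1447 differed between pretreated and knockout cells at day 4 only, 971 at day 0 only, 822 at both days and 203 at neither. Most common among positive genes was a higher level at day 4 alone (726), followed by a lower level at day 0 alone (423) and by a lower level at day 0 that became a higher one at day 4 (259). Among negative genes 721 were lower at day 4 alone, 548 higher at day 0 alone, and 238 went from higher to lower.

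Of the 30 gene lists, that of endoderm, with the chains of its basement membrane, had the highest median interaction. Of 28 tested members of the endoderm list, 19 had a positive and 1 a negative interaction, against 11.0% and 11.6% of all genes, and the list's median was 2.26 (2.44 with floored groups set at the floor), against -0.03 over all genes. The list holds genes of definitive and of extraembryonic endoderm. Lama1, the laminin α1 chain of embryonic basement membranes (ENSMUSG00000032796, chromosome 17 from 67697259 to 67822647), had the largest positive value among its members with no group at the floor. The C1 libraries held 13.4, 10.8, 16.1 and 15.3 CPM and the C1T libraries 3.36, 3.75, 4.29 and 6.53. The C1M libraries held 21.2, 14.5, 17.6 and 15.7 CPM and the C1MV libraries 162, 196, 212 and 288. Lama1 therefore fell in knockout cells (-1.68 on the log2 scale) and rose in pretreated cells (3.62), from starting levels that overlapped, and every C1MV library was above every other library. Its interaction was 5.30 (SE 0.38, edgeR FDR = 1e-14).

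Collagen IV, the network-forming collagen of basement membranes, rose in pretreated cells in both of its main chains. For Col4a1 (ENSMUSG00000031502, chromosome 8 from 11198423 to 11312826) the C1 libraries held 27.3, 22.6, 24.9 and 23.5 CPM and the C1T libraries 28.8, 35, 32.4 and 25.5. The C1M libraries held 21.6, 13.8, 30.3 and 20.6 and the C1MV libraries 308, 416, 382 and 447 CPM, a fitted 17.7-fold rise from groups that otherwise all overlapped. The interaction was 3.83 (SE 0.23, edgeR FDR = 3e-21). Col4a2 (ENSMUSG00000031503, chromosome 8 from 11312805 to 11449287) went from 18 to 12.5 CPM in knockout cells and from 15.4 to 187 in pretreated cells, with an interaction of 4.09 (SE 0.24, edgeR FDR = 1.5e-32).

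These genes lie head to head and share a promoter region, so their starts are shown because both chains rose in pretreated cells. In the RefSeq windows of GRCm38.p6, 250 bases before to 50 after each start, Col4a1 is at chr8:11312777-11313076 on the minus strand and Col4a2 at chr8:11312555-11312854 on the plus strand, and the windows share 78 bases. Each is written 5′ to 3′ on its gene's strand, and capitals mark the CCAAT and GGGCGG boxes on either strand.
Col4a1: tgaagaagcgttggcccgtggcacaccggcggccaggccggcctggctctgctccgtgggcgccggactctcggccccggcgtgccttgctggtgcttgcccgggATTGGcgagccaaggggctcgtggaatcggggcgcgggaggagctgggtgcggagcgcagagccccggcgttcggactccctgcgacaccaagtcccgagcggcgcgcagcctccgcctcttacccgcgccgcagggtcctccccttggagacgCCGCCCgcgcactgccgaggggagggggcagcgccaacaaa
Col4a2: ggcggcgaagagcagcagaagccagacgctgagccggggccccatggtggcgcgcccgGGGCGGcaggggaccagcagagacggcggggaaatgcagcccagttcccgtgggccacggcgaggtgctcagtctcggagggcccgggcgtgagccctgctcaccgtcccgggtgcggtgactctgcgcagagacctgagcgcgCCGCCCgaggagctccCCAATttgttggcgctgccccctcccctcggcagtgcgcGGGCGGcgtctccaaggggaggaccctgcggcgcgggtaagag
CCAAT was present on either strand in 37.4% and GGGCGG in 35.7% of all 32851 windows. Neither window held CTTTGAA or CTTTGAT, the letters that TCF factors prefer, which were found in 8.65% of windows, or AGATAA or TGATAA, those of GATA factors, found in 18.6%. Among tested genes with a window, the TCF letters were present for 6.90% of 1289 genes with a positive and 6.67% of 1394 with a negative interaction, against 7.25% of all 11658. For GATA the shares were 11.6%, 11.7% and 12.4%, for CCAAT 40.2%, 44.4% and 43.0%, and for GGGCGG 73.5%, 69.2% and 66.2%. A match is a description of letters, not of a bound site. Lama1, Lamc1, Gata6, Sox17, Spink1 and Pou3f1 had no window in the table used.

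Sparc, a collagen-binding matrix glycoprotein, differed by its abundance (ENSMUSG00000018593, chromosome 11 from 55394500 to 55423183). The C1 libraries held 1410, 1227, 1208 and 1472 CPM and the C1T libraries 195, 209, 235 and 234, whereas the C1M libraries held 817, 829, 856 and 920 and the C1MV libraries 1979, 2380, 2289 and 2406. It fell in knockout cells and rose in pretreated cells with no overlap between any 2 groups, and the interaction was 4.01 (SE 0.10, edgeR FDR = 9.3e-77). The remaining laminin chains took different routes to the same sign. Lamb1 rose in pretreated cells alone (90.1 to 347 CPM, interaction 2.12), Lamc1 fell in both but less in pretreated cells (394 to 61.8 and 266 to 221 CPM, 2.39), and Nid1, which links laminin to collagen IV, did likewise (350 to 8.91 and 254 to 25 CPM, 1.86). Serpinh1, a collagen chaperone, rose in both and more in pretreated cells (1.76).

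Receptors and transcription factors of endoderm were among them. Dab2, an endocytic adaptor of the visceral and parietal endoderm, was at 8.81, 9.06, 4.15 and 4.32 CPM in the C1 libraries and 12, 11.7, 14.8 and 6.53 in C1T. It was at 14.9, 18.1, 21.5 and 8.26 CPM in C1M and 156, 273, 260 and 243 in C1MV, where all 4 libraries were above all others, and its interaction was 3.05 (SE 0.52, edgeR FDR = 6.8e-05). Amn, which forms the vitamin B12 receptor with Cubn, had an interaction of 3.45 (6.11 to 89.6 CPM). Cubn itself was at the floor in C1, C1T and C1M and at 16.1 ± 4.69 CPM in C1MV, so that no size of interaction can be given for it, and its call, counted among the 19, was lost without replicate 1 of C1 (adjusted p = 0.92), although C1MV was at least 11-fold above C1T. Pdgfra, a growth factor receptor of primitive endoderm and mesoderm, reached 16.1 ± 2.52 CPM in C1MV from 2.23 ± 1.31 in C1M, with an interaction of 3.29 that was lost without replicate 4 of C1 (2.6, adjusted p = 0.0881). Pth1r, the receptor for parathyroid hormone and a gene of parietal endoderm, rose from 8.61 ± 1.47 to 90.6 ± 9.75 CPM (3.54).

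The transcription factors were expressed at low levels. For Gata6 the C1 libraries held 2.94, 0.566, 1.04 and 0.479 CPM and the C1T libraries 2.88, 4.58, 2.38 and 1.96. The C1M libraries held 3.82, 4.61, 2.61 and 4.13 CPM and the C1MV libraries 26.6, 37.8, 30.5 and 33.5, a fitted 10.3-fold above C1T, with an interaction of 1.91 (SE 0.64, edgeR FDR = 0.019). This call was lost without replicate 1 of C1, whose level was the highest of its group (interaction 1.04, adjusted p = 0.474), while the C1MV libraries lay above all others. Gata4 and Foxa2 had interactions of 2.48 and 2.65 and reached 21.3 and 21.2 CPM in C1MV. Sox17 was at the floor in C1T and at 17 ± 4.42 CPM in C1MV, at least 11.6-fold above it. Not every endoderm gene followed. Hnf4a, Ttr and Apoa1, a regulator and 2 secreted products of visceral endoderm, had interactions of 0.39, 0.42 and 0.47 that did not pass (edgeR FDR = 0.7, 0.29 and 0.13), although the last 2 passed without replicate 4 of C1T (0.72 and 0.68) and that of Hnf4a ran from 0.11 to 0.69 with 1 library left out. Rhox5, a homeobox gene, had the single negative call (-0.39), which was lost without any 1 of 5 libraries, namely replicate 1 of C1, 2 and 4 of C1M, and 2 and 3 of C1T (-0.35 to -0.31, adjusted p from 0.0508 to 0.105). The summed level of the list was 5343 to 5911 CPM in C1, 3858 to 4303 in C1M, 2690 to 3822 in C1T and 7275 to 8984 in C1MV, with Sparc as a large part of it.

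**Figure D2:**
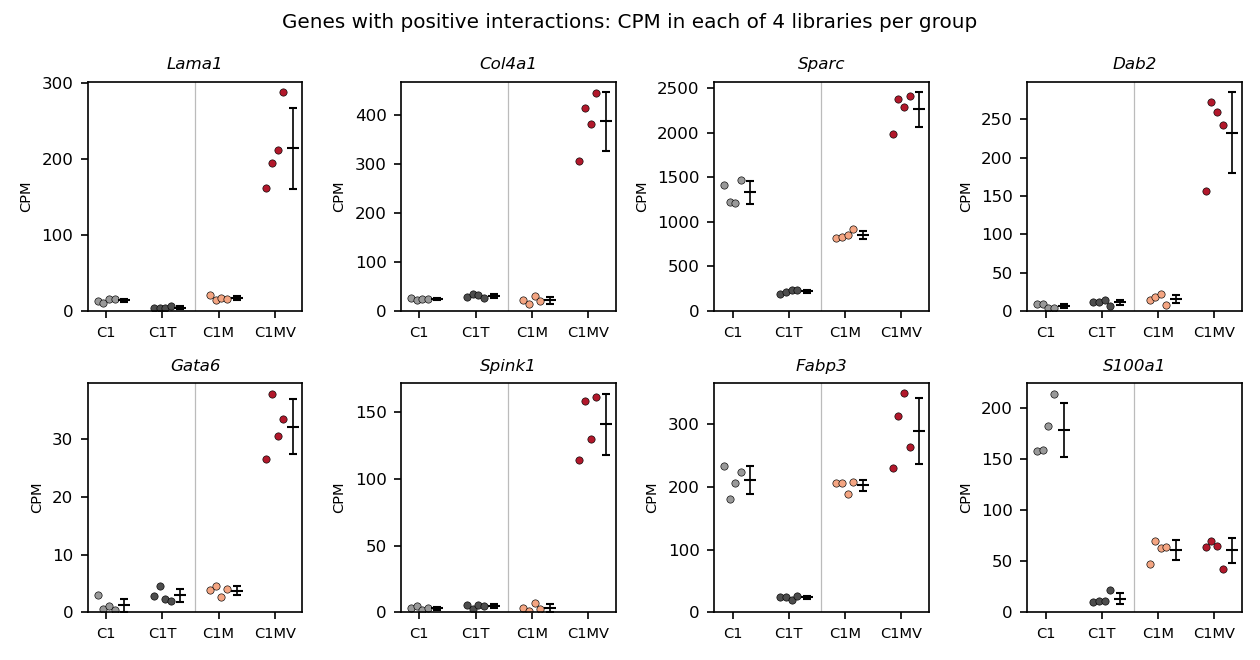
CPM of 8 genes with a positive interaction in each of the 4 libraries of C1, C1T, C1M and C1MV (points), with the mean and SD beside them, and a line between the knockout and the pretreated groups. Lama1, Col4a1, Dab2, Gata6 and Spink1 are high in C1MV alone, whereas S100a1 is highest in C1 (158 to 214 CPM).

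The extracellular matrix list, which shares members with the endoderm list, also had mostly positive calls. Of 32 tested members 18 had a positive and 1 a negative interaction, against 11.0% and 11.6% of all genes, with a median of 1.00, and of the 25 that the endoderm list does not hold 11 were positive and 1 negative, with a median of 0.78. Among these Hspg2, the basement membrane proteoglycan perlecan, had 2.91, P4ha1, which hydroxylates collagen, 2.31, and Fn1, fibronectin, 1.33. Fn1 fell in both kinds of cells (1005 to 165 and 552 to 229 CPM). Vcan, a large proteoglycan, was the negative one (-0.79). Fibroblast markers, those of the cells on which ESCs can be grown, summed to 21.3 to 29.4 CPM in C1, 31.4 to 34.3 in C1M, 14.9 to 18.9 in C1T and 22.1 to 29.96 in C1MV over the 7 of 12 members that passed the filter on low counts, with Col3a1, Lum, Postn, Fap and S100a4 below it. Their part in the matrix result was not tested.

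Several further genes had large positive interactions of other forms. Spink1, a trypsin inhibitor (ENSMUSG00000024503, chromosome 18 from 43728082 to 43737557), was at 3.36, 4.53, 1.56 and 3.36 CPM in C1 and 5.76, 2.5, 5.24 and 4.57 in C1T. It was at 2.97, 0.71, 7.17 and 2.48 CPM in C1M and 114, 159, 130 and 161 in C1MV, the only group that did not overlap another, and the interaction was 4.84 (SE 0.57, edgeR FDR = 3e-10). Srgn, the secretory granule proteoglycan serglycin, showed the same form (7.86, 5.01, 11.2 and 91.6 CPM, 3.65).

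Fabp3 and S100a1 instead lost expression in knockout cells only. Fabp3, a fatty acid binding protein, was at 232, 181, 206 and 223 CPM in C1 and 24.5, 23.7, 20.5 and 26.8 in C1T, but at 206, 205, 188 and 208 in C1M and 230, 312, 349 and 263 in C1MV, with an interaction of 3.67 (SE 0.17, edgeR FDR = 3.8e-26). S100a1, a calcium-binding protein, was at 158, 159, 183 and 214 CPM in C1 and 10.1, 10.8, 11.4 and 21.5 in C1T. It was at 47.5, 70.2, 62.6 and 64.4 CPM in C1M and 64.1, 70.4, 65.4 and 42.8 in C1MV, so that C1M started below C1 and overlapped C1MV (0.02, edgeR FDR = 0.93), and the interaction was 3.80 (SE 0.20, edgeR FDR = 4.8e-36). Its relative S100a13 had 3.64 and fell in both kinds of cells. Htra1, a secreted protease, fell from 64.6 to 1.96 CPM in knockout cells but only from 58.6 to 47.7 in pretreated cells (4.71), and Ahnak, a large scaffold protein, from 223 to 14.5 and from 82.2 to 50.4 (3.21). Adap1, an Arf GTPase-activating protein, fell in one and rose in the other (3.10). Serpinb6c, a serine protease inhibitor, fell to the floor in C1T, and the ratio of its responses was at least 14.8-fold. For Lrrc55, a channel subunit, the difference was at the start, 1.29 ± 0.788 CPM in C1M against 18.2 ± 7.64 in C1, while the day 4 levels did not differ at the threshold (15.8 and 22.2 CPM, interaction 4.24).

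Of 26 tested naive pluripotency genes 12 had a positive interaction and 6 a negative one, 69.2% called in all against 22.5% of all genes, and both directions were above their shares over all genes (11.0% and 11.6%). All 12 positive genes fell in both kinds of cells, and less in pretreated cells. Klf4, a core naive factor (ENSMUSG00000003032, chromosome 4 from 55527143 to 55532466), was at 1350, 1234, 1158 and 1399 CPM in C1 and 41.8, 43.7, 36.7 and 37.9 in C1T. It was at 732, 697, 750 and 846 CPM in C1M and 152, 111, 120 and 96.3 in C1MV, lower at the start and higher at the end than in knockout cells with no overlap, and its interaction was 2.36 (SE 0.15, edgeR FDR = 9.8e-19). Tcl1, a coactivator of Akt kinases, was at 181, 182, 190 and 228 CPM in C1 and 42.7, 33.3, 31 and 26.8 in C1T, and at 252, 242, 218 and 222 in C1M and 178, 138, 150 and 133 in C1MV, so that the C1MV libraries lay between C1T and the day 0 groups (1.90 (SE 0.15, edgeR FDR = 1.2e-21)).

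Nanog was at 584, 608, 615 and 517 CPM in C1 and 92.1, 89.5, 82.5 and 96 in C1T, and at 734, 690, 689 and 556 in C1M and 194, 178, 148 and 219 in C1MV. It started at overlapping levels and ended higher in every C1MV library than in any C1T library (0.82 (SE 0.12, edgeR FDR = 1.9e-08)). Esrrb, Tfcp2l1, Tbx3, Klf2 and Zfp42 had interactions of 1.24, 1.46, 1.41, 1.40 and 1.22. Spp1, the secreted protein osteopontin, had 1.86. The negative members were Gbx2, Nr0b1, Tdgf1, Dppa2, Dppa4 and Fgf4, from -2.95 to -0.53, with the call for Nr0b1 lost in a fit of the 16 libraries (adjusted p = 0.0831). Gbx2, a homeobox factor, rose from 1.16 to 26 CPM in knockout cells and from 2.25 to 6.7 in pretreated cells, and with C1 at so low a level the size of its interaction is uncertain (-3.66 to -2.48 with 1 library left out). Of 15 general pluripotency genes 2 had a positive and 6 a negative interaction, against 11.0% and 11.6% of all genes. The positive share was near that of all genes, and the list's median was 0.07, with 9 members above 0 and 6 below. Sox2 and Pou5f1 did not pass (edgeR FDR = 0.35 and 0.64), while Utf1, a chromatin protein of undifferentiated cells, had -2.03.

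Most genes of the formative state, which normally rise on leaving the naive state, had a negative interaction. Of 22 tested members 14 had a negative and 2 a positive interaction, against 11.6% and 11.0% of all genes, with a median of -0.89 (-0.77 with floored groups at the floor), and 12 of the 14 rose in both kinds of cells. Pou3f1, a POU factor of the early epiblast and neural lineage (ENSMUSG00000090125, chromosome 4 from 124656807 to 124660655), was at 4.2, 4.53, 4.15 and 4.32 CPM in C1 and 256, 225, 304 and 236 in C1T. It was at 10.2, 8.16, 8.8 and 7.43 CPM in C1M and 89.9, 112, 106 and 56.4 in C1MV, higher at the start and lower at the end with no overlap, and its interaction was -2.45 (SE 0.38, edgeR FDR = 2.3e-06). Dnmt3a, a de novo DNA methyltransferase (ENSMUSG00000020661, chromosome 12 from 3806007 to 3914443), was at 47.9, 51.5, 46.2 and 39.8 CPM in C1 and 793, 748, 876 and 777 in C1T. It was at 45.4, 39.4, 47.3 and 42.5 CPM in C1M but 148, 154, 143 and 171 in C1MV, a fitted 3.5-fold rise where that of knockout cells was 17.3-fold (-2.30 (SE 0.14, edgeR FDR = 2.4e-32)). Dnmt3b (-0.68) was affected less. Its cofactor Dnmt3l rose to 348 CPM in C1T and 403 in C1MV, with an interaction of 0.61 that did not pass (edgeR FDR = 0.099) but passed in DESeq2, without a filter on low counts and without replicate 2 of C1T (0.61, 0.60 and 0.70, adjusted p = 0.0298, 0.0155 and 0.0471) or replicate 3 of C1M (1.07, adjusted p = 0.000151).

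Pim2, a growth-promoting kinase of the epiblast (ENSMUSG00000031155, chromosome X from 7878262 to 7883432), had the most negative called interaction of the list. The C1 libraries held 5.46, 5.09, 7.27 and 3.36 CPM and the C1T libraries 168, 160, 181 and 150. The C1M libraries held 8.07, 8.87, 7.17 and 6.19 and the C1MV libraries 30.2, 35.6, 26.5 and 33.5 CPM, from overlapping starts, and the interaction was -2.92 (SE 0.30, edgeR FDR = 2.4e-15). Its RefSeq promoter window, chrX:7878056-7878355 on the plus strand of GRCm38.p6, is shown as a negative gene that holds the TCF letters, ATCAAAG on this strand, in capitals. These letters were no more common among negative genes (6.67%) than among all tested genes with a window (7.25%).
Pim2: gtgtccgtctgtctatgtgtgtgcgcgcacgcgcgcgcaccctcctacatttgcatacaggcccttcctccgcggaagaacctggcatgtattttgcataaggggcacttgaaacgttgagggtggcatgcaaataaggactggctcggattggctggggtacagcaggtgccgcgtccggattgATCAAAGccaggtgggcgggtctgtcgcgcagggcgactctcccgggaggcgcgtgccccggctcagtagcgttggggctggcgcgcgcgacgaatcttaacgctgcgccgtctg
Sox3, Grhl2, Tcf15, Lef1 and Sox11 had interactions of -2.59, -2.45, -2.13, -1.94 and -1.81. For Lef1, a transcriptional partner of β-catenin that went from 2.51 to 270 and from 2.53 to 76.7 CPM, the call was lost without replicate 3 of C1M (-0.90, adjusted p = 0.312). Fgf5, a growth factor of the epiblast, was at the floor in C1 and C1M and at 15.2 ± 2.97 CPM in C1T and 4.62 ± 1.74 in C1MV, and its interaction did not pass (edgeR FDR = 0.33). Of the remaining lists of embryonic lineages, neural and ectoderm genes had 2 positive and 3 negative calls among 24, primitive streak and mesoderm genes 3 and 5 among 26, and trophoblast genes 7 and 2 among 19. The neural and mesoderm shares, 20.8% and 30.8% called, were near the 22.5% of all genes, and that of trophoblast genes was 47.4%. At least 1 of the 4 groups was at the floor for 17 of the 24 neural and 16 of the 26 mesoderm genes. Over all 15280 genes this held for 3274, and depth limits such genes most.

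**Figure D3:**
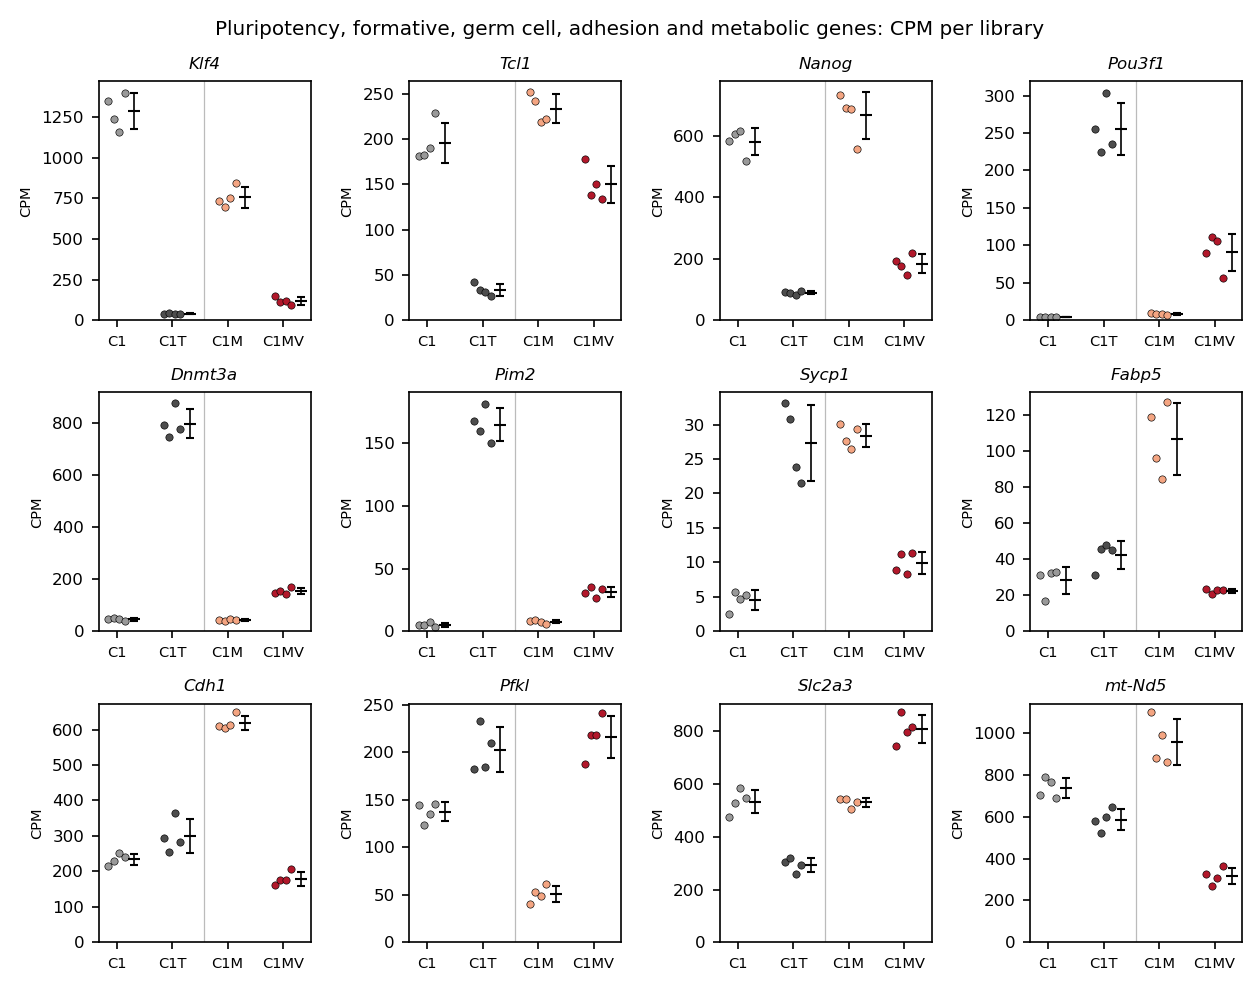
CPM of 12 genes of pluripotency, formative state, germ cells, adhesion and metabolism in each of the 4 libraries of C1, C1T, C1M and C1MV, with the mean and SD beside the points. Dnmt3a and Pim2 rise most in C1T, Fabp5 and Cdh1 are highest in C1M, Sycp1 is high in C1M and in C1T, and mt-Nd5 is lowest in C1MV (269 to 362 CPM).

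Germ cell and piRNA genes were mostly higher in C1M than in C1 at the start, 22 of 29 against 14.3% of all genes. Of 29 tested members 16 had a negative and 4 a positive interaction (11.6% and 11.0% of all genes), with a median of -1.58, and all 16 negative genes were among those 22. At day 4, 10 of these did not differ at the threshold, 5 were lower in C1MV than in C1T and 1 was higher. Sycp1, a protein of the synaptonemal complex (ENSMUSG00000027855, chromosome 3 from 102818499 to 102936100), was at 2.52, 5.66, 4.67 and 5.27 CPM in C1 and 33.1, 30.8, 23.8 and 21.5 in C1T. It was at 30.1, 27.7, 26.4 and 29.3 CPM in C1M and 8.87, 11.2, 8.36 and 11.4 in C1MV. It thus rose in knockout cells and fell in pretreated cells with no overlap between the groups of either pair, and the interaction was -4.15 (SE 0.32, edgeR FDR = 1e-23). Dazl, an RNA-binding protein of germ cells, fell in pretreated cells alone (76.6 to 17.1 CPM, -2.21), and Taf7l, a germ cell paralogue of a TFIID subunit, rose in knockout cells alone (13.5 to 76.6 CPM, -2.77). Mov10l1 and Mael, both of the piRNA pathway, had -2.62 and -2.57. Slc25a31, a mitochondrial ADP/ATP carrier of the testis, had -3.00. Dnd1, Tex14, Tfap2c and Kit were the positive members (1.34, 0.99, 0.84 and 0.72), and the call for Dnd1 was lost in DESeq2 (adjusted p = 0.0514), without a filter on low counts (0.0503) and without any 1 of 6 libraries (adjusted p from 0.0516 to 0.127). Those libraries were replicates 1 and 4 of C1, 4 of C1M, 2 of C1T, and 2 and 3 of C1MV, with interactions from 1.06 to 1.38. The 6 negative calls among 14 genes of the two-cell-like state are uncertain, because 5 had a group at the floor and these genes come in near-identical copies of which uniquely aligned reads show only a part.

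Components of the Wnt pathway itself had calls in both directions. Of 19 targets and feedback genes 6 had a negative and 1 a positive interaction, 36.8% called in all, and of 36 ligands, receptors and TCF factors 6 and 3, or 25%, against 22.5% of all genes. Bmp4, a target in mesoderm, rose in knockout cells alone (8.08 to 49.7 CPM against 8.94 to 9.25, -2.67). Sfrp1, a secreted Wnt antagonist, was the positive one and fell from 1004 to 174 and from 1015 to 575 CPM (1.71). Wls, which carries Wnt proteins to the cell surface, rose in pretreated cells alone (2.48), and Porcn, which acylates them, had -1.49. Wnt3 was at the floor in C1.

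The junction partners of β-catenin had calls in both directions. Among 29 genes of the destruction complex, catenins and cadherins, 8 had a positive and 4 a negative interaction, the latter near the 11.6% of all genes and the former above their 11.0%. Cdh1, E-cadherin (ENSMUSG00000000303, chromosome 8 from 106603351 to 106670246), was at 216, 228, 251 and 240 CPM in C1 and 296, 254, 366 and 283 in C1T. It was at 611, 603, 612 and 649 CPM in C1M and 160, 176, 176 and 206 in C1MV, so that C1M held the highest and C1MV the lowest libraries and no groups overlapped (-2.16 (SE 0.11, edgeR FDR = 8.8e-38)). Jup, plakoglobin, which can take the place of β-catenin at junctions, had 1.16, and Ctnna1, α-catenin, 0.81. Both fell in knockout and in pretreated cells. In the list for epithelial and mesenchymal transition 11 were positive and 5 negative of 30. Cldn4, a tight junction protein, had 2.66 and Krt8, a keratin, 2.08. Snai1, a repressor of Cdh1, had 2.74 with group means from 0.536 to 3.38 CPM, at which its size is uncertain, and 4.32 without replicate 2 of C1T.

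Transcripts of glycolysis and of the mitochondrial genome had called interactions of opposite sign. Of 25 tested genes of glycolysis and its regulation 17 had a positive interaction and none a negative one (11.0% and 11.6% of all genes), with a median of 0.83. Pfkl, the liver-type phosphofructokinase (ENSMUSG00000020277, chromosome 10 from 77986947 to 78010083), was at 144, 124, 136 and 146 CPM in C1 and 183, 233, 184 and 210 in C1T. It was at 40.3, 52.9, 49.2 and 61.1 CPM in C1M and 188, 218, 218 and 241 in C1MV, low in C1M and overlapping at day 4, with an interaction of 1.52 (SE 0.13, edgeR FDR = 2.3e-19). Slc2a3, a glucose transporter, differed at the end instead, with 476, 526, 584 and 547 CPM in C1, 304, 319, 259 and 292 in C1T, 541, 545, 507 and 532 in C1M and 745, 874, 798 and 816 in C1MV (1.46 (SE 0.10, edgeR FDR = 4e-27)). Aldoc, Ldhb and Tpi1 had 1.49, 1.21 and 1.05. Slc2a1 and Gapdh did not pass (0.12 and 0.25, edgeR FDR = 0.64 and 0.3), although Gapdh did without replicate 1 of C1 (0.41). Of the 17 genes, 12 were lower in C1M than in C1 (12.0% of all genes), and 10 were higher in C1MV than in C1T and 2 lower (15.3% and 14.9%).

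Calls among transcripts of the mitochondrial genome had the other sign. Of 12 tested, 7 had a negative interaction and none a positive one, against 11.6% and 11.0% of all genes, with a median of -0.65. mt-Nd5, a subunit of complex I (ENSMUSG00000064367, chromosome M from 11742 to 13565), was at 703, 789, 767 and 688 CPM in C1 and 579, 521, 600 and 644 in C1T. It was at 1098, 879, 991 and 859 CPM in C1M and 328, 269, 305 and 362 in C1MV, highest and lowest of the 4 groups without overlap (-1.27 (SE 0.11, edgeR FDR = 6e-18)). mt-Nd4 and mt-Cytb had -1.70 and -1.28. The summed level of the 12 was 21462 to 26475 CPM in C1, 22115 to 25151 in C1M, 16271 to 18660 in C1T and 6863 to 9468 in C1MV, and the part of RNA quality in this was not tested. Subunits of the respiratory chain from nuclear genes had 10 positive and 20 negative calls of 83. Mitochondrial ribosomal proteins had 3 and 20 of 77. Their medians were -0.19 and -0.15, and 36.1% and 29.9% were called, against 22.5% of all genes. Positive calls were near the 11.0% of all genes for the respiratory chain and below it for mitochondrial ribosomal proteins. Without replicate 1 of C1 the negative calls for the respiratory chain were 12, and without replicate 3 of C1T the positive ones were 6.

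Several further lists had more negative than positive calls, where 11.6% and 11.0% of all genes had them. Of 35 genes of cholesterol and fatty acid synthesis 14 were negative and 3 positive, with a median of -0.47. Hsd17b7, a sterol synthesis enzyme, had -1.22. Elovl6, which elongates fatty acids, fell in both kinds of cells, with log2 changes of -0.35 in knockout and -1.35 in pretreated cells. Of 19 targets of p53 9 were negative and none positive, with a median of -0.45. Pmaip1, which promotes apoptosis, rose in knockout cells alone (4.36 to 26.7 CPM, -2.79), and Cdkn1a, the cell cycle inhibitor p21, rose in knockout cells and fell in pretreated cells (-1.18). Of 86 cytosolic ribosomal proteins 34 were negative and 4 positive, with a median of -0.25. All 34 rose in knockout cells, and 29 of them were higher in C1M than in C1. Of all 86, 70 rose in knockout cells and 61 were higher in C1M, against 24.4% and 14.3% of all genes. At day 4, 19 of the 34 did not differ at the threshold, 7 were lower in C1MV than in C1T and 8 were higher. Without replicate 1 of C1 the negative calls were 25. Ribosomal protein genes have many pseudogenes, and only uniquely aligned reads were counted. Genes of the cell cycle had 3 positive and 10 negative calls of 37, those of DNA replication 2 and 9 of 39 (1 and 5 without replicate 1 of C1M), which at 28.2% called is near the 22.5% of all genes. Cdkn1c, Ccnd2 and E2f2 had -2.41, -2.12 and -1.81, while Top2a, a gene of dividing cells, did not pass (0.14, edgeR FDR = 0.27). The remaining lists had calls in both directions, 5 positive and 4 negative of 32 for FGF and ERK feedback, 5 and 4 of 31 for Nodal, Activin and BMP signalling, 2 and 8 of 22 for DNA methylation, 7 and 7 of 31 for imprinted genes, 2 and 4 of 30 for Hox genes and 6 and 6 of 26 for the integrated stress response. Those for FGF, for Nodal and for Hox genes, at 28.1%, 29% and 20% called, were near the share of all genes.

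**Figure D4:**
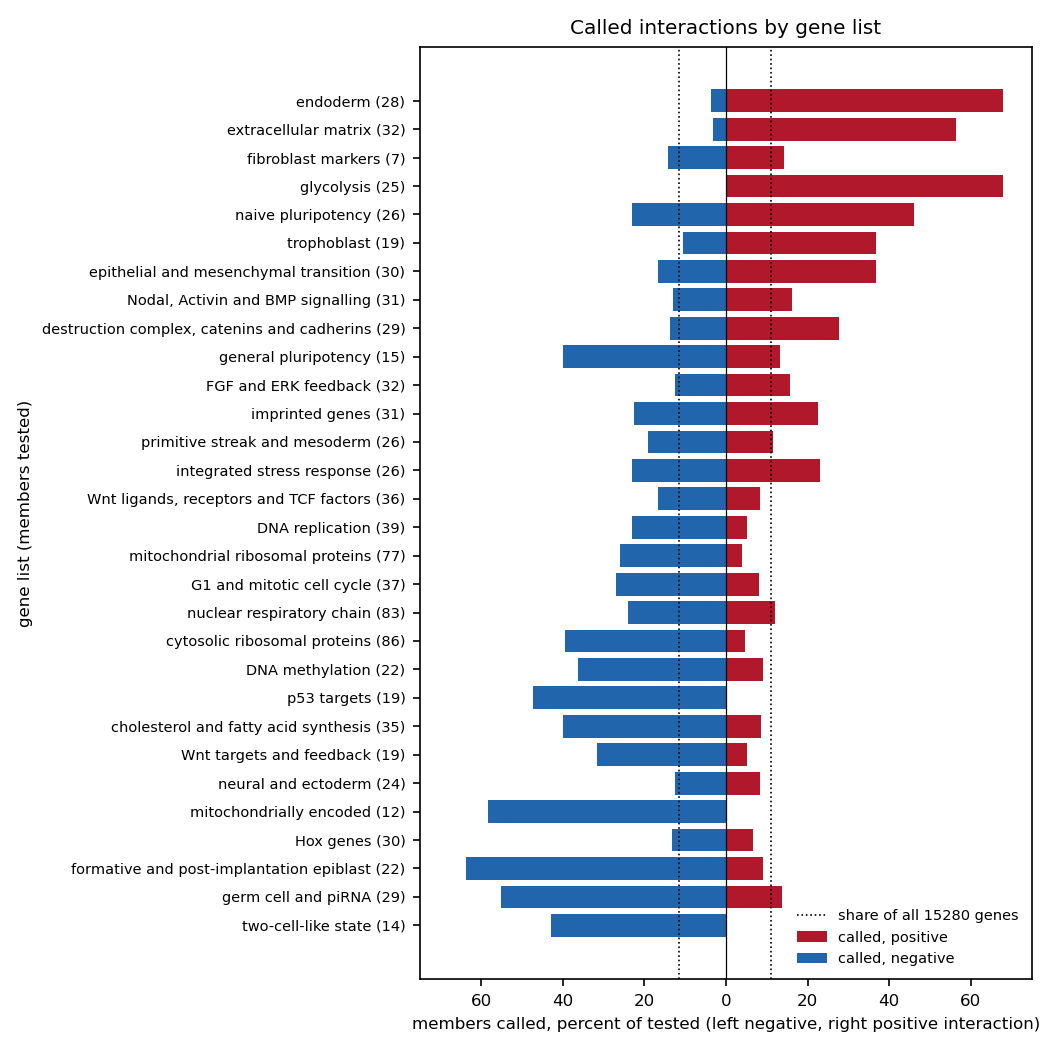
Share of the tested members of each of 30 gene lists with a called interaction, negative to the left and positive to the right, in percent, ordered by the median interaction; dotted lines mark the shares over all 15280 genes (11.6% and 11.0%). The endoderm, extracellular matrix and glycolysis lists reach furthest to the right and formative, germ cell and mitochondrially encoded genes furthest to the left.

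**Figure D5:**
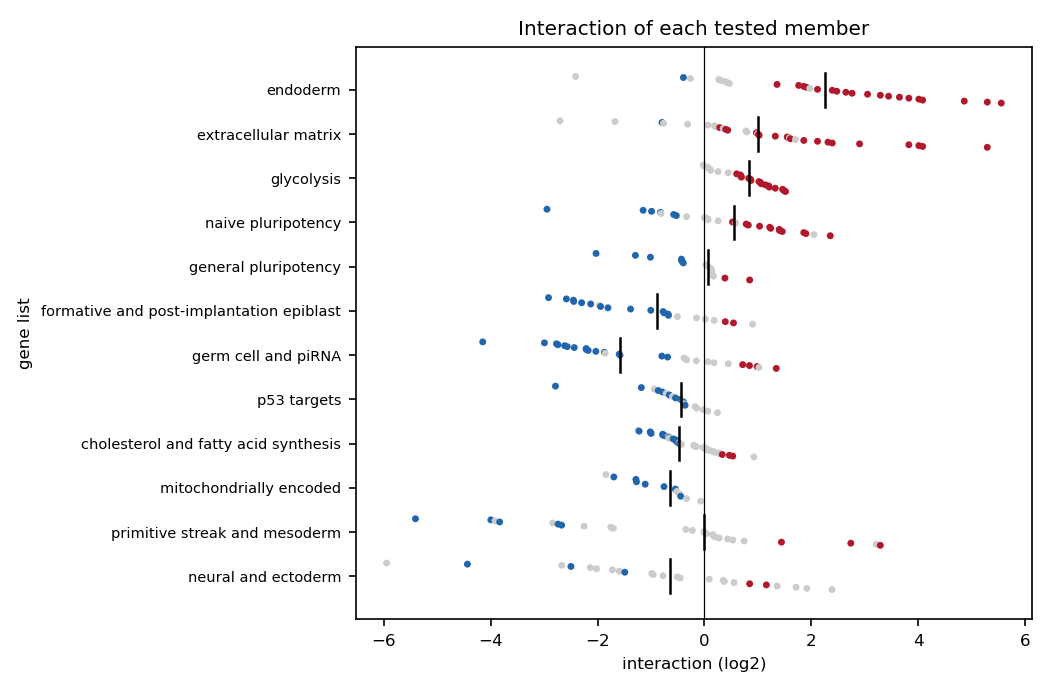
Log2 interaction of every tested member of selected lists (1 point per gene, red or blue where called and grey where not), with a black bar at the median of each list. All called glycolysis genes lie above 0 and all called p53 targets and mitochondrially encoded genes below 0.

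Single genes with large negative interactions belonged to many functions. Sema6a, a guidance molecule (ENSMUSG00000019647, chromosome 18 from 47235598 to 47368870), was at 2.94, 2.27, 1.56 and 0.959 CPM in C1 and 48, 34.1, 45.3 and 30.7 in C1T. It was at 3.4, 4.97, 3.59 and 3.71 CPM in C1M and 0.806, 2.62, 2.18 and 3.57 in C1MV, so that C1T alone was high, and the interaction was -5.16 (SE 0.57, edgeR FDR = 1.1e-13). With C1 and C1MV near the floor (1.46 and 1.4 CPM), the size of this interaction rests on few counts. It ran from -5.435 to -4.856 with 1 library left out. Fabp5, a fatty acid binding protein (ENSMUSG00000027533, chromosome 3 from 10012548 to 10016607), was at 31.1, 17, 32.2 and 32.6 CPM in C1 and 31.2, 45.4, 47.7 and 45 in C1T. It was at 119, 95.8, 84.1 and 127 CPM in C1M and 23.4, 21, 22.9 and 22.8 in C1MV, high in C1M alone, and the interaction was -2.80 (SE 0.21, edgeR FDR = 1.2e-24), with a sign opposite to that of Fabp3. Nqo1, a quinone reductase, fell in pretreated cells (35.7 to 6.61 CPM, -2.77). Sned1, Proser3 and Enpp3 rose in knockout cells alone, and Cilp2 rose in knockout cells and fell in pretreated cells (-3.25, -4.18, -3.91 and -2.77). Bcl11a, a zinc finger repressor, rose from the floor in C1 to 58.5 ± 8.82 CPM in C1T, and in pretreated cells from 2.9 ± 1.92 to 14.6 ± 4.34. The noncoding RNAs Mir17hg, host of a microRNA cluster, and Bc1, a short brain RNA, had -2.60 and -2.61.

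Cells of the high mCherry gate, taken through the same withdrawal, were compared to see whether the amount of β-catenin mattered for the response. The test of the difference between the moderate (C1MV minus C1M) and the high response (C1HV minus C1H) called 8 genes (0.0524%) in edgeR, with 1062 at an unadjusted p under 0.05, and 15 in DESeq2, so that for most genes a difference was not detectable with 4 libraries per group. For Ctnnb1 the difference was 2.23 (SE 0.34, edgeR FDR = 1.4e-05), moderate minus high, as C1H started at 41.2 CPM and C1HV ended at 6.21. The other genes were Slc7a7 (-1.71), Otx2 (-0.53), Fbxo15 (0.52), Nelfa (0.77), Chka (0.87), Gm21761 (0.90) and Slc13a5 (1.19), which were named because they passed. Otx2, a homeobox factor of the formative state, stood at 109 ± 10.8 CPM in C1M against 78.7 ± 5.71 in C1H before differentiation, and afterwards at 279 ± 26.6 in C1MV and 293 ± 9.26 in C1HV. Lama1, Col4a1 and Pou3f1 differed by -0.01 (SE 0.25, edgeR FDR = 1), -0.08 (SE 0.20, edgeR FDR = 0.98) and -0.05 (SE 0.32, edgeR FDR = 0.99). The number called ranged from 4 without replicate 2 of C1M to 17 without replicate 4 of C1MV.

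Moderate cells that kept both inducers through differentiation gave a measure of what withdrawal did at day 4. C1MV and C1MDT differed for 1924 genes (12.6%). The C1MV libraries also enter the interaction, so the comparisons are not independent. Lama1 was at 215 ± 53.4 CPM in C1MV and 208 ± 10.8 in C1MDT, a log2 difference of 0.03 (SE 0.12, edgeR FDR = 0.92). Col4a1 and Dab2 were lower after withdrawal (-0.61 and -0.95, edgeR FDR = 5.9e-07 and 1.8e-05), with 588 ± 23.4 and 448 ± 50.9 CPM in C1MDT. Among naive genes, Klf4, Tcl1 and Nanog were higher after withdrawal. Klf4 was at 120 ± 23.6 CPM in C1MV and 44.1 ± 7.59 in C1MDT (1.46 (SE 0.12, edgeR FDR = 1.7e-14)), close to the 40.01 ± 3.28 of C1T, and Tcl1 and Nanog differed by 1.63 and 1.15. Pim2 and Dnmt3a, which rose less in C1MV than in C1T, stood between them in C1MDT at 86.7 ± 6.4 and 286 ± 12.8 CPM (-1.47 and -0.90). C1MDT differs from C1MV by dox and by TMP during differentiation, which cannot be told apart.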

How the data were processed

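RNA of the mouse ESC line C1 was sequenced as QuantSeq 3′ libraries. Trimming was done with bbduk, alignment with STAR against mm10 and counting with htseq-count, and the authors deposited raw counts of uniquely aligned reads, whole numbers for 31053 genes per library. Rows that name no gene were left out. Relative to all alignments listed, reads that did not align uniquely made up 49.4% to 56.4%, those in no feature 5.56% to 10.4% and ambiguous ones 0.240% to 0.287%. Names and positions came from GENCODE M21 (GRCm38), which named 31011 genes.

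The filter kept genes at 1 CPM or more in 4 or more of the 32 libraries. They were compared by the quasi-likelihood test of edgeR 4.0.16 (R 4.3.3, TMM factors), fitted once to all 8 groups, with Benjamini-Hochberg adjustment over all 15280 genes and a threshold of 0.05. CPM were scaled with the TMM factors. A group with every library at 3 counts or fewer is at the floor, and a fold against it is a bound from 3 counts per library, averaged over the group. The alternatives were RLE factors, library size only, DESeq2 1.42.0, other filters, the replicate number as a block, a fit of the 16 libraries and each library left out in turn. Replicate numbers recur in every group, but libraries with the same number deviated from their group means with mean r between -0.0152 and 0.0143, so they were not paired. The steps were tested on simulated data, where the share of edgeR's calls that were false was above the threshold and many of the changed genes were not recovered.

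The interaction, the gene lists and the rule for named genes were chosen with earlier results of these data known. The rule takes the 10 largest interactions of each sign among called genes with at least 5 CPM in each group, the 5 largest of each sign among those with at least 20 CPM in one group and a low or floored one, up to 4 called members per list with those that define its role, and the genes the study targets or measures by qPCR. Other list members were named after their values were seen. Promoter windows came from RefSeq (GRCm38.p6), where 11658 of the tested genes had one. Aldoa, Rian, Ddit3, mt-Rnr1, mt-Rnr2 and Zscan4a were listed but not matched. The labels give separate biological replicates, and no library was left out of the values reported.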

Additional observations from a re-analysis of the deposited data

Results flagged for a closer look

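The interaction itself is a difference between groups under the same contrast, and it was called for 3443 genes. The responses of moderate and high cells differed for 8 genes by the test of that difference, with log2 values, moderate minus high, of -1.71 for Slc7a7, an amino acid transporter, -0.53 for Otx2, 0.52 for Fbxo15, 0.77 for Nelfa, 0.87 for Chka, choline kinase, 0.90 for Gm21761, 1.19 for Slc13a5, a citrate transporter, and 2.23 for Ctnnb1. Fbxo15 went from 655 to 294 CPM in moderate cells and from 871 to 273 in high cells, and Slc7a7 from 5.51 to 61 and from 1.88 to 69.2.

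Among 92 groups of 4 libraries tested, those of each gene whose values are printed per library and those of the reads on genes, 4 held a library far from the other members, where chance gives about 1 in 20. They were Fabp3 in replicate 3 of C1M (188 CPM, below the others), S100a1 in replicate 4 of C1T (21.5 CPM, above), Fabp5 in replicate 2 of C1 (17.0 CPM, below) and Fabp5 in replicate 1 of C1T (31.2 CPM, below).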

How the results depend on the processing

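The number of called interactions was 3445 with RLE factors, 3445 with library size only, 3246 with DESeq2, 3276 without a filter on low counts, 3182 with at least 1 CPM in all 16 libraries (10502 genes tested), 3419 in a fit of the 16 libraries and 3385 with a replicate block, which kept 3359 of the calls with the same sign. Leaving out 1 library at a time gave counts from 3102 (without C1 replicate 1) to 3447 (without C1MV replicate 4), and the positive share ran from 47.7% to 53.4% over all of these. No gene was called with the opposite sign under any of them. For moderate against high cells DESeq2 called 15 genes (911 at an unadjusted p under 0.05), against 8 in edgeR, and the cause was not tested. The 8 genes passed in 18 to 22 of 22 alternatives each. Of the endoderm list, 12 genes were positive with at least 1 CPM in all 16 libraries, where fewer were tested, and 21 at most. Many list counts of 7 or fewer calls moved by over 1.5 times when 1 library was left out, such as the negative Wnt targets, from 6 to 3 without C1M replicate 3, and the positive imprinted genes, from 7 to 4 without C1T replicate 4. Depth limits low genes most: for 3274 of the tested genes 1 or more of the 4 groups was at the floor, and Axin2, Fgf5 and several endoderm factors are among those counted near it.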
